A study of Mus musculus with 4 samples.

Results

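Kif11, Kif20a, Kif23, Cenpe and Cenpf are 5 genes of the cell division machinery, and their sequence variants were read from the messenger RNA of 2 mouse cancer cell lines. They were chosen by earlier results of these data: each had a variant in the LM8 list that changes the protein and is missing from the MBT2 list, so that count chose them and is given only as a description. Every variant that the lists assign to these genes is described, 14 listings out of 11806, in 5 of the 5614 genes with any listed variant. LM8 is an osteosarcoma line and MBT2 a bladder cancer line with the clone label 63. Both are syngeneic with C3H/HeN mice, carry no engineered allele in the labels and were cultured without treatment in medium with 10% serum, MEM with HEPES for LM8 and RPMI-1640 for MBT2. Poly(A) RNA was made into directional libraries, read from both ends over 75 bases, with 2 libraries per line. Both libraries of a line carry the same stock code and nothing says that they came from separate cultures, so a difference between them may be technical. The p-values come from read counts, so they measure counting error of reads and no spread between cultures. The lists were called from RNA with no matched normal sample, so a listed variant may be a mutation of the line, a difference between mouse strains or a change made in the RNA or the library, and these cannot be told apart from the lists.

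Kinesins are motor proteins that walk along microtubules on energy from ATP. Kif11 cross-links and slides apart microtubules of opposite direction, which makes the spindle bipolar. Kif23 is the motor of the centralspindlin complex of the spindle midzone, and Kif20a carries the chromosomal passenger complex to the same midzone late in mitosis. Cenpe is a kinesin of the kinetochore, the protein platform that ties a chromosome to the spindle, and moves chromosomes to the spindle equator. Cenpf is a long coiled-coil protein that is not a motor. It builds up before mitosis, sits at the outer kinetochore and binds regulators of dynein.

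LM8 had 9 of the 14 listings, 4 in Kif11, 2 in Cenpf and 1 each in Kif20a, Kif23 and Cenpe. MBT2 had 5, namely 3 in Cenpf and 1 each in Kif11 and Kif20a, and none was listed for Kif23 or Cenpe. A single variant, an insertion in Cenpf, was in both lists. The LM8 listings were 5 substitutions and 4 insertions of a single base, and the MBT2 listings were 3 substitutions, 1 single-base insertion and 1 long deletion.

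Coding sites of Kif11, Kif23, Cenpe and Cenpf are printed here with the bases around them, because 3 of them are runs of A into which a further A was inserted and 5 are single changed bases. The site of Kif20a G735D is not printed. The bases are the reference transcripts of GENCODE release M21 on the build GRCm38, 5′ to 3′ on the RNA strand, with T for U, and they were placed by codon number since the variant lists use GRCm39. Capitals mark the changed base or the run that took the insertion, with 20 bases on either side. Substitutions are written with the reference base, the position counted from 1 at the first base of the start codon, and the alternative base. In the first 6 the variant was listed in LM8, and in the last 2 in MBT2. The Cenpf run at K1796 was listed in both.
Kif11 D523G, A1568G: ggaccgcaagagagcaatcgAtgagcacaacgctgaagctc
Kif11 insertion at N536: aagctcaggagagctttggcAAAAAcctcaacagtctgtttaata
Kif23 Q703*, C2107T: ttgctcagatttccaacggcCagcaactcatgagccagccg
Cenpe insertion at I1726: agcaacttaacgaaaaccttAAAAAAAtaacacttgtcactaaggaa
Cenpf insertion at K1796: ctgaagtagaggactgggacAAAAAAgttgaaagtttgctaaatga
Cenpf A346T, G1036A: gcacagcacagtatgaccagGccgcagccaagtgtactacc
Cenpf A2740, A8220G: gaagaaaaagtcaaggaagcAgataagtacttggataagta
Cenpf V2451, G7353T: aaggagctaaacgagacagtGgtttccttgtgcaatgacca

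At all listed sites together the LM8 libraries held 596298 and 571088 reads and the MBT2 libraries 742698 and 790762, with medians of 62, 61, 68 and 73 reads per site in the same order. The libraries of a line were different data, with identical reads per allele at only 0.863% of LM8 sites and 0.739% of MBT2 sites. Of 7 osteoblast marker genes, Col1a1 and Runx2 had a listed variant in LM8 and none had one in MBT2, and 0 of 8 urothelial and 0 of 4 other marker genes had one in either line. The lists give reads at variant sites only, so no expression level could be set against the line labels.

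The share of alternative reads was low in LM8 and spread widely in MBT2. The LM8 listings held the alternative base or insertion in 1.40% to 10.5% of reads, with a median of 3.08%, and 8 of the 9 were at or under 10%. In MBT2, 2 of the 5 listings were at or under 10% and the other 3 stood at 31.5%, 68.3% and 83.6%. These 3 were 2 silent changes of Cenpf and the deletion of Kif20a. A share is alternative reads over alternative plus reference reads, its interval is an exact 95% Clopper-Pearson interval, and intervals and floors cover counting error only because reads of an amplified library are not independent molecules. A line that lacks a listing gives no reads there, so absence from a list does not show that the base was unchanged.

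**Figure D1:**
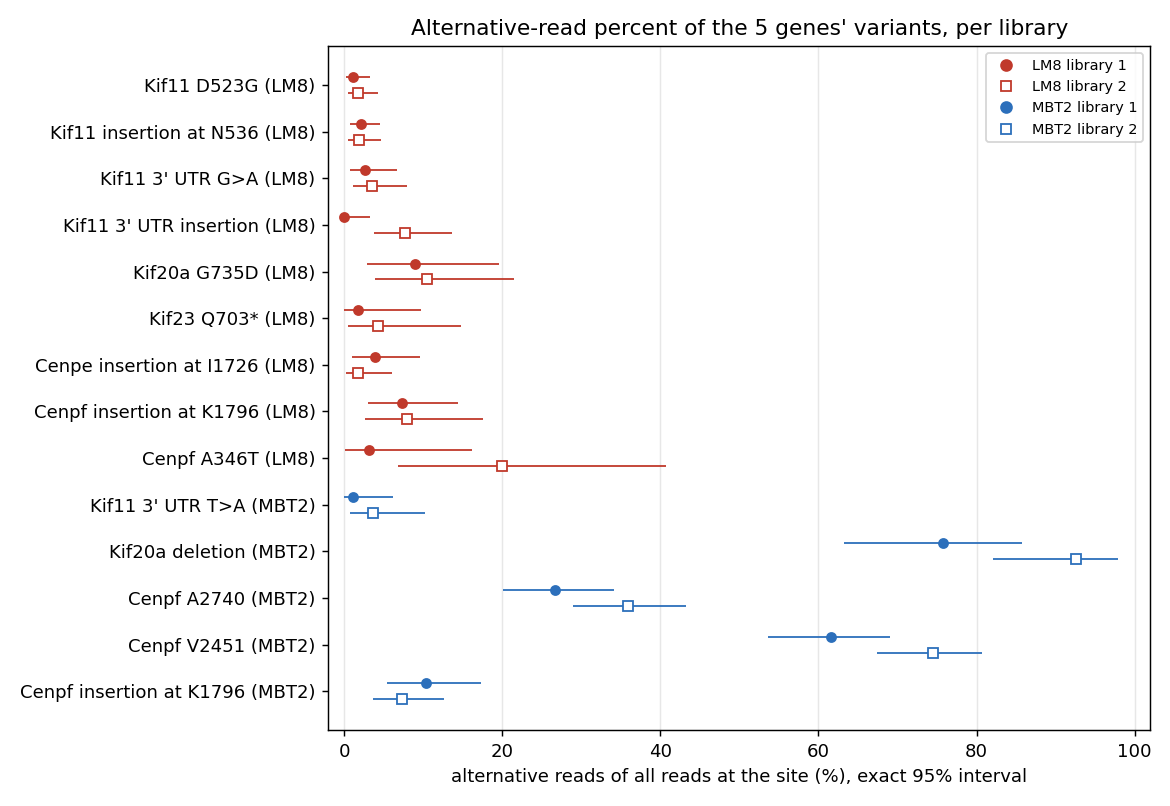
Alternative reads as a percent of all reads at the site for the 14 listings, with LM8 above MBT2; filled circles are library 1, open squares library 2, and lines are exact 95% intervals. The LM8 points lie at or under 20%, while the Kif20a deletion and the 2 silent Cenpf substitutions of MBT2 lie between 26.7% and 92.6%.

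Kif11, the motor of spindle bipolarity, had the most LM8 listings. The missense change D523G in exon 13 of 22 (chromosome 19, position 37392638, GRCm39) was in 3 of 267 reads in library 1 and 4 of 232 in library 2. That is 1.40% of 499 reads (0.566 to 2.87), the lowest share among the 14 listings. A few codons further on in the same exon, 1 A was inserted at N536 (position 37392672) into a run of 5 A. It was in 6 of 282 and 4 of 218 reads, 2% of 500 in all (0.963 to 3.65). Read in the new frame, the transcript meets a stop at codon 542 of 1052, so 51.4% of the protein would stand before it. Both libraries carried each of these changes and their intervals overlap.

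The 3′ UTR of Kif11 held 2 more LM8 listings, both in exon 22. A G>A substitution (position 37409963) was in 4 of 149 and 5 of 143 reads, 3.08% in all (1.42 to 5.77). An insertion of A into a run of 7 A (position 37410041) was in 0 of 112 reads of library 1 (0 to 3.24), where 3 reads would be 2.68%. In library 2 it was in 10 of 130 reads, or 7.69% (3.75 to 13.7). At every other listing both libraries of the line held alternative reads. The 2 intervals do not overlap, but the difference did not pass Fisher's exact test (two-sided, p = 0.00205, adjusted p = 1 by Benjamini-Hochberg over all LM8 sites). The site was also the only one of the 14 with an allele frequency in the caller's population resource that differs from its default (1.72 against 2.02 as −log10), as 3.01% of the LM8 list had. In MBT2 the single Kif11 listing was a T>A change at another 3′ UTR base (position 37409471), in 1 of 87 and 3 of 83 reads, 2.35% in all (0.645 to 5.91).

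Kif20a, the midzone kinesin, had 1 listing in each line, of unlike kinds. In LM8 the missense change G735D in exon 17 of 19 (chromosome 18, position 34764658) was in 5 of 56 and 6 of 57 reads, 9.73% in all (4.96 to 16.8). The libraries stood close together at 8.93% and 10.5%. The residue is number 735 of 887, and the base is the eighth before an exon junction of the reference transcript. All 11 alternative reads ran in reverse direction, against 71 reverse and 31 forward reference reads, a difference that did not pass the exact test after adjustment (p = 0.0333, adjusted p = 0.373 by Benjamini-Hochberg). Alternative reads of a single direction were also found at the Kif11 3′ UTR G>A change (9 reverse) and insertion (10 reverse) of LM8. The same held for Cenpf A346T (6 forward). Reference reads ran in both directions at each of these sites.

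In MBT2, Kif20a had a deletion of 106 bases (chromosome 18, position 34762006) that the annotation places at the splice donor of exon 10. It was in 47 of 62 reads of library 1, or 75.8%, and 50 of 54 of library 2, or 92.6%, which is 83.6% in all (75.6 to 89.8). On the RNA strand the deleted bases begin with GT and end with AG, the ends that most introns have. No intron of Kif20a in the M21 annotation has that length, the nearest of 21 different lengths being 110 bases, and 0 of the 95 words of 12 bases in the deleted stretch occur in its 6 annotated transcripts. So the bases are missing from the annotated RNA of the gene, and whether the deletion is a gap left by splicing or a change in the genome was not tested. Long deletions, those of 21 or more bases, had a median of 86.7% over the MBT2 list, and 34.3% of them begin with GT and end with AG on either strand.

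Kif23, the centralspindlin motor, had a single listing, the stop-gained change Q703* in LM8 (chromosome 9, position 61831462, exon 18 of 23). It rests on 3 alternative reads, 1 of 55 in library 1 and 2 of 46 in library 2, which is 2.97% in all (0.617 to 8.44). The new stop would leave 73.7% of the 953 residues before it. Over the whole LM8 list, 20 substitutions gained a stop, with a median of 4.96%, and 10 of them were below 5%.

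Cenpe, the kinetochore motor, also had a single listing, an insertion of A in LM8 (chromosome 3, position 134954313, exon 34 of 46). It lies in a run of 7 A at I1726 and was in 4 of 103 and 2 of 117 reads, 2.73% in all (1.01 to 5.84). The shifted frame meets a stop at codon 1731 of 2471, after 70.0% of the protein.

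Cenpf, the largest of the 5 proteins, had listings in both lines. The missense change A346T of LM8 (chromosome 1, position 189411147, exon 7 of 18) was in 1 of 32 reads of library 1 and 5 of 25 of library 2. Its pooled share of 10.5% of 57 reads (3.96 to 21.5) was the highest of the LM8 listings and rests on the fewest reads, at 3.13% and 20% in the 2 libraries, whose intervals overlap (exact test, p = 0.0767, adjusted p = 1 by Benjamini-Hochberg). The base lies 12 bases before an exon junction.

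The Cenpf insertion at K1796 (chromosome 1, position 189386890, exon 13) was the variant that both lists shared. In LM8 it was in 7 of 96 and 5 of 63 reads, 7.55% in all (3.96 to 12.8). In MBT2 it was in 12 of 116 and 11 of 151 reads, 8.61% in all (5.54 to 12.6). The share was 1.07 percentage points lower in LM8 than in MBT2, coded as a difference of -1.07, and the intervals of all 4 libraries overlapped. Fisher's exact test (two-sided) gave p = 0.856 and an adjusted p of 1 over 1261 variants found in both lists, of which 7.3% differed between lines. With MBT2 library 1 left out the difference turned to 0.262 points. The run has 6 A, and the new frame meets a stop at codon 1798 of 2997, after 59.96% of the protein.

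MBT2 further had 2 silent changes in Cenpf at high shares. At V2451 (chromosome 1, position 189384926, exon 13), a G>T change was in 101 of 164 and 134 of 180 reads, 68.3% in all (63.1 to 73.2). At A2740 (position 189381199, exon 16), an A>G change was in 44 of 165 and 66 of 184 reads, 31.5% in all (26.7 to 36.7). Their pooled intervals do not overlap. In both, library 2 was the higher, by an exact test p = 0.0110 at V2451 and 0.0663 at A2740, each with an adjusted p of 1 by Benjamini-Hochberg. Shares this high were scarce among silent changes of LM8, where 5 of 322 (1.55%) exceeded 60% and 6 (1.86%) exceeded 30%, against 34 of 333 (10.2%) and 65 (19.5%) in MBT2.

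**Figure D2:**
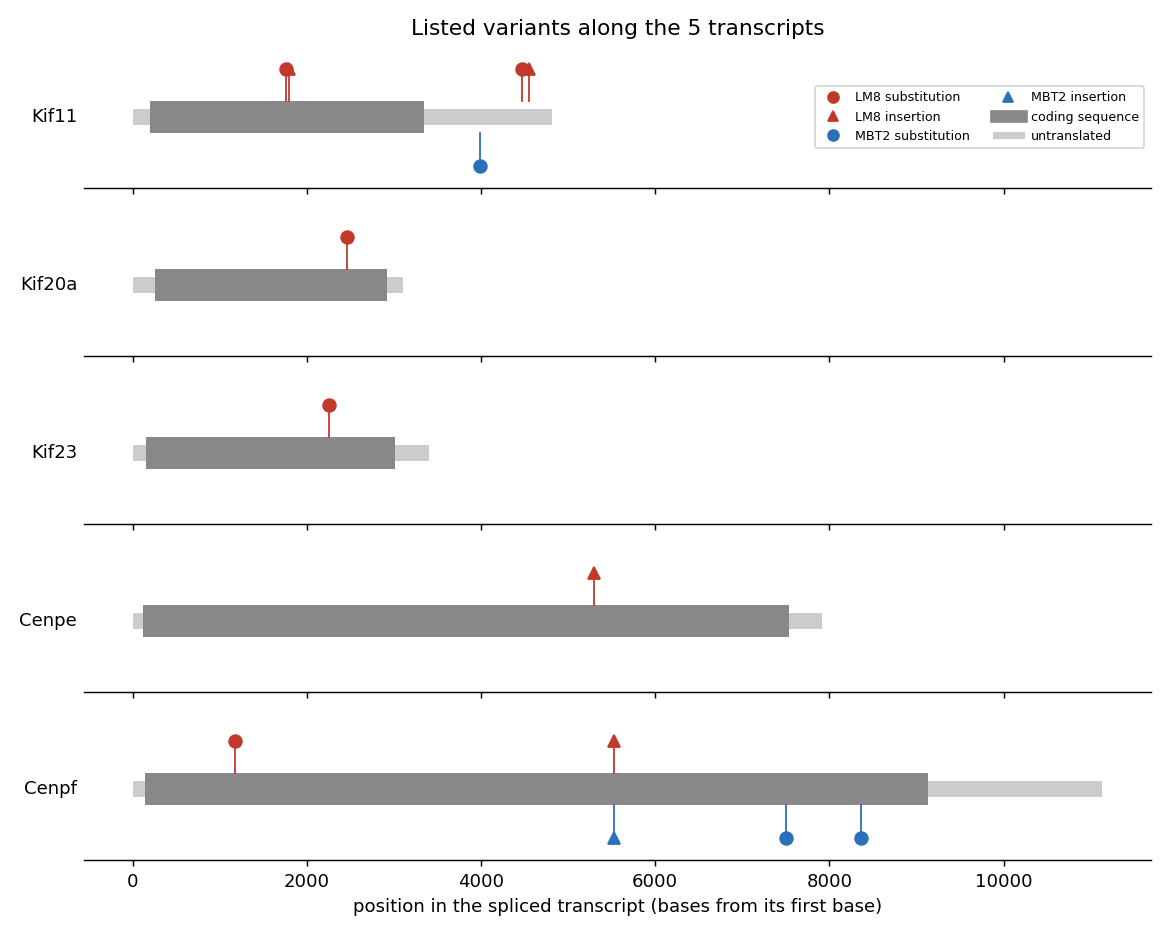
Position of the listed substitutions (circles) and single-base insertions (triangles) along the spliced reference transcripts, in bases from the first base, with LM8 above the bar and MBT2 below it; the Kif20a deletion is missing because its bases are not in the transcript. The Kif11 listings of LM8 fall in 2 close pairs, 1 in the coding sequence and 1 in the 3′ UTR, and the Cenpf insertion is the only mark found on both sides of a bar.

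Of the genes with any listed variant, 32% in LM8 and 36.6% in MBT2 had a private protein-altering one. All 5 genes had one in LM8, 2 in Kif11 and 1 in each of the others, as the choice of the genes requires, and 1 of the 3 that were listed had one in MBT2, the Kif20a deletion. In LM8 the 6 variants had a median of 2.85%, against 9.04% over the 1365 private protein-altering variants of the list, and 1 of the 6 was above 10%, against 648 of the 1365. Part of that total is long deletions, 512 of the 1365 and none of the 6. Among substitutions alone the medians were 6.35% over 4 variants and 5.71% over 634.

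No difference between duplicate libraries was called at any of the 14 sites after adjustment. Fisher's exact test with Benjamini-Hochberg adjustment called 0% of 5445 LM8 sites and 0% of 6361 MBT2 sites, so the count over these genes stands against a background of no calls. At an unadjusted p under 0.05 it picked 3 of the 14, the Kif11 3′ UTR insertion of LM8 and the Kif20a deletion and V2451 of MBT2, against 212 LM8 sites (3.89%) and 239 MBT2 sites (3.76%).

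Reads of 1 transcript in a directional library share an orientation of the read pair, and at 11 of the 14 sites every oriented read, alternative or reference, had the same one, so no difference could arise there. The other 3 sites were Kif20a G735D and Cenpf A346T in LM8 and the Kif20a deletion in MBT2, and an exact test with Benjamini-Hochberg adjustment called 0 of these 3. It called 1.47% of 5444 LM8 sites and 3.02% of 6361 MBT2 sites, which is 18.7% of the 427 LM8 sites and 21.5% of the 895 MBT2 sites that had reads of both orientations. At an unadjusted p under 0.05 the test picked 133 LM8 sites (2.44%) and 307 MBT2 sites (4.83%). All of these had reads of both orientations, so they are 133 of the 427 and 307 of the 895. Of the 3 sites here it picked 1, the Kif20a deletion, with p = 0.0166 and adjusted p = 0.399 (exact test, Benjamini-Hochberg). There the 2 orientations had 0 and 37 alternative reads and 2 and 4 reference reads. The direction of single reads differed at 0 of the 14 after adjustment, against 2.72% of LM8 sites and 3.49% of MBT2 sites, and at 3 of the 14 (Kif20a G735D in LM8, A2740 and the Cenpf insertion in MBT2) at an unadjusted p under 0.05, as at 11.4% of LM8 and 13.4% of MBT2 sites. Alternative reads had a median mapping quality of 60 at each of the 14 sites. Their median base quality ranged from 22 at Kif11 D523G in LM8 to 45 at the Kif20a deletion in MBT2. Reference reads stood at 32 at both of these sites.

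In LM8, 4 of the 5 substitutions sat at the ends of their reads. The median distance of the alternative base from the read end was 1 base for Kif20a G735D, Cenpf A346T and the G>A change of the Kif11 3′ UTR, and 2 bases for Kif11 D523G. At Kif23 Q703* it was 20 bases. In MBT2 none of the 3 substitutions was so placed, at 6 bases for the Kif11 T>A change, 15 for A2740 and 20 for V2451. The Kif20a deletion of MBT2, which is not a substitution, had a median distance of 1 base. Such placement was common in both lists: 40.9% of 2802 LM8 substitutions and 40.1% of 3169 MBT2 ones had a median distance of 2 bases or less.

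**Figure D3:**
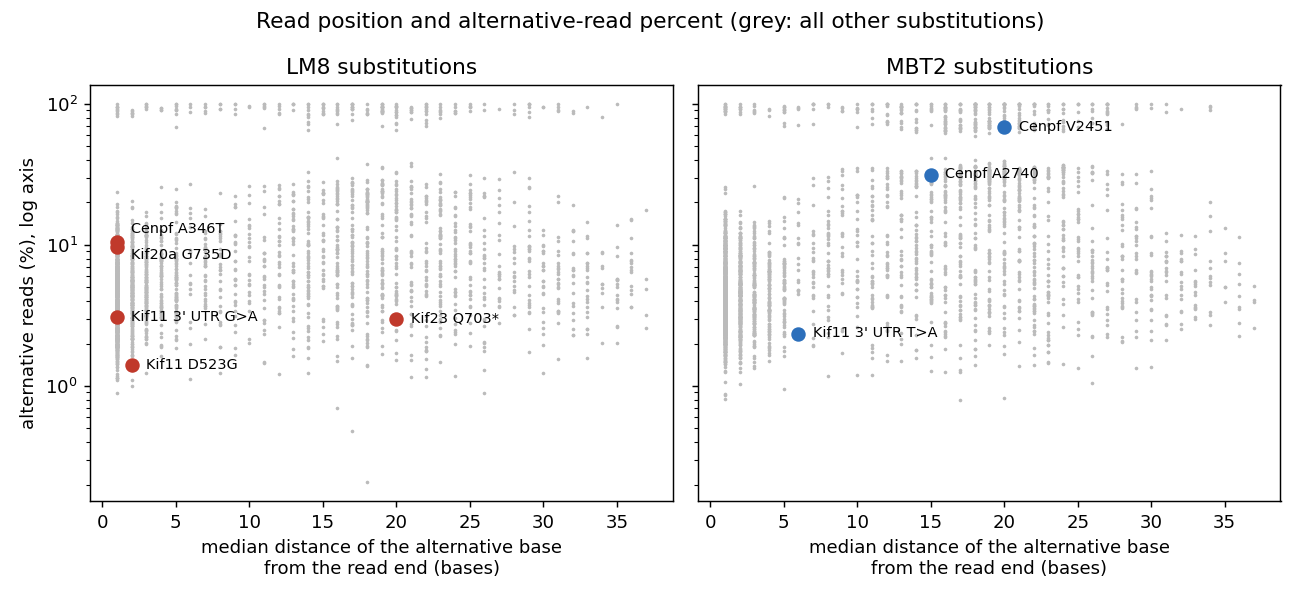
Median distance of the alternative base from the read end, in bases, against the percent of alternative reads on a log axis, for every listed substitution of LM8 (left) and MBT2 (right); coloured points are the substitutions of the 5 genes and grey points all others. Of the LM8 points 4 of 5 stand at 1 or 2 bases, while the MBT2 points stand at 6, 15 and 20 bases.

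Of the 4 read-end substitutions in LM8, 3 changed G to A in the RNA, the exception being the A>G change D523G. This class made up 34.2% of such LM8 substitutions and 21.1% of the others. The 2 that lie in coding sequence next to an exon end, Kif20a G735D and Cenpf A346T, were 8 and 12 bases from the junction, whereas D523G was 77 bases from one and the change in the Kif11 3′ UTR 1257 bases. Within 12 bases of a junction, the distance of A346T itself, lay 31% of 410 read-end coding substitutions in LM8 and 11.6% of 553 others. The part of read ends and junctions in these 4 calls was not tested.

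All 4 different insertions of the 5 genes added an A to a run of A on the RNA strand, although Cenpf lies on the minus strand of its chromosome. The runs held 5 A in Kif11 at N536, 6 in Cenpf and 7 in Cenpe and the Kif11 3′ UTR. In the lists as a whole, 69.4% of LM8 and 69.6% of MBT2 single-base insertions were of A on the RNA strand, and 98.1% and 97% extended a run of the same base. In LM8 the median share was 4.25% in runs of 5 (17 insertions), 4.09% in runs of 6 (375) and 3.92% in runs of 7 (209). Against these, Kif11 N536 at 2% and Cenpe at 2.73% lay below the median of their run length, and Cenpf at 7.55% and the Kif11 3′ UTR at 4.13% above it.

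**Figure D4:**
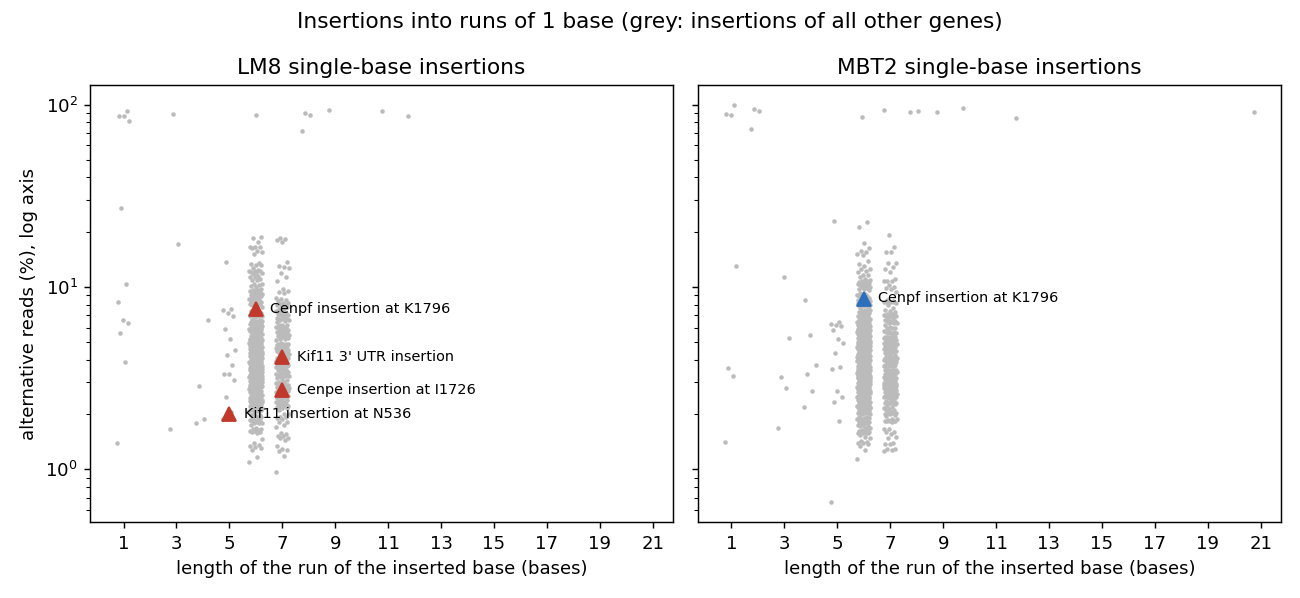
Length of the run of the inserted base, in bases, against the percent of alternative reads on a log axis, for every listed single-base insertion of LM8 (left) and MBT2 (right); grey points are spread sideways within a length to be seen, and triangles are the insertions of the 5 genes. The triangles lie within the grey columns of 5, 6 and 7 bases, at 2% to 8.61%.

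Long runs of A were present in all 5 coding sequences, and few of them carried a listed insertion. Runs of 6 or more A numbered 5 in Kif11, 3 in Kif20a, 2 in Kif23, 5 in Cenpe and 8 in Cenpf. An insertion was listed in 1 of those in Cenpe and 1 in Cenpf, and the coding insertion of Kif11 was in a shorter run. The longest run had 6 A in Kif11 and Kif20a, 7 in Kif23 and Cenpe and 8 in Cenpf. Reads over the runs without a listing were not given. Among frameshift insertions of a single base, 45.9% of the 172 in LM8 and 34.1% of the 232 in MBT2 were in both lists, as that of Cenpf was, with medians of 4.06% and 3.90%.

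The partners of these genes were followed through a list of 83 symbols of other kinesin, spindle, centromere and kinetochore genes. In LM8, 32 had a listed variant and 19 of them (59.4%) a private protein-altering one, against the 32% of all listed genes. In MBT2 the counts were 42 and 16 (38.1%), against 36.6%. By group, LM8 had such a variant in 2 of 6 listed kinesin motors, 5 of 7 genes of the midzone and spindle, 1 of 2 of the chromosomal passenger complex, 3 of 7 of the centromere, 3 of 4 of the outer kinetochore and 5 of 6 of the checkpoint and corona. MBT2 had 3 of 8, 3 of 8, 0 of 2, 4 of 9, 1 of 7 and 5 of 8 in the same groups. The centromere group includes Cenpj, a centriole gene, whose Q343* in LM8 was in 2 of 25 reads. The median share of the private protein-altering variants was 5.83% over 21 in LM8 and 12.8% over 19 in MBT2. Over all genes it was 9.04% and 19.4%. Long deletions made up 512 of the 1365 variants of all LM8 genes and 752 of the 1841 in MBT2. In the list of 83 symbols they were 2 of 21 and 5 of 19. Among substitutions alone, LM8 had medians of 6.48% over 14 in the list and 5.71% over 634 in all genes. In MBT2 these medians were 9.5% over 9 and 6.49% over 795. All listed genes include ones that encode no protein, such as mt-Ti, unlike the 83 symbols, so the gene percentages have unlike bases. The symbols were also chosen with earlier results of these data known, and an excess in LM8 was not tested.

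In LM8, 5 of the 21 partner variants were above 10%. Of these, 2 lay in the 12 most deeply read genes, A324P of Aurkb, the kinase of the passenger complex that Kif20a carries, in 20.3% of 543 reads (17.0 to 23.9), and E189G of the centromere gene Cenpq in 20.4% of 324 (16.1 to 25.2). They lay 14 and 18 bases from read ends at the median. The other 3, in genes outside those 12 and named after their values were seen, were a long deletion of Ect2 in 93.2% of 73 reads (84.7 to 97.7), L166P of Racgap1, the partner of Kif23 in centralspindlin, in 14.3% of 63 (6.75 to 25.4), and Numa1 A96T in 13.5% of 74 (6.68 to 23.5). The Racgap1 and Numa1 changes had a median distance of 1 base from the read end. The rest of the variants in the 12 most deeply read genes were at 2% to 6.21%: Spc25 K94E of the Ndc80 complex, the kinesin change Kif4 S1230P, Tacc3 V192A of the spindle, Spdl1 D235Y, Zwilch R348Q and Ttk G100D of the kinetochore corona and checkpoint, Dsn1 E49K, a long deletion of Cenpx, and insertions of A in Hmmr at I722, Sgo1 at M342 and Dsn1 at N51. Of the 14 private protein-altering substitutions in the list, 8 were within 2 bases of read ends (57.1%), against 41.2% of the 634 of all LM8 genes and 3 of the 4 of the 5 genes.

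In MBT2 the partner substitutions reached higher shares. Kntc1 L1114F, in a corona gene that recruits dynein, was in 75.2% of 129 reads (66.8 to 82.4), Ckap5 L1018V, in a microtubule polymerase gene, in 35.7% of 571 (31.8 to 39.8), Hjurp R350H, in the gene of a centromere chaperone, in 33.8% of 346 and Mad1l1 M245V, in a checkpoint gene, in 28.9% of 173 (22.3 to 36.3). Low shares were found too, at 2.73% to 9.5%, for Kif5b R143G, Spdl1 Q136R, Clasp2 A1189T, Hjurp G337D and insertions of A in Knl1 at N1064 and Kntc1 at N1645. The remaining named variants were a longer insertion in Ttk at 85.2% and long deletions in Kif22 at 88.4% and 91.4%, Cenpt at 77.8% and Mad2l1 at 15.2%.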

How the data were processed

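One variant list per line in variant call format 4.2 was used, for 2 LM8 and 2 MBT2 libraries. The deposited columns hold reads per allele and library, and a caller's allele fraction, another kind of value that the authors' caller estimated. Each list was called jointly over 2 libraries by Mutect 2.2 with no normal sample, filtered with GATK 4.1.5.0 and annotated with SnpEff 5.1d and its database 105, per the file headers. bcl2fastq 2.17.1.14, cutadapt 1.9.1, STAR 2.7.9a, GATK 4.3.0 and the build GRCm39 are named, per the submitters' processing notes. The handling of spliced reads ahead of the caller was not given in the sources used here. Calling from RNA can list only expressed bases, and joint calling means that a variant absent from 1 library may still be listed for it.

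Shares were computed from reads per allele, with exact intervals and a floor of 3 reads where a count was 0. Fisher's exact tests (two-sided, Benjamini-Hochberg, threshold 0.05) ran over all listed sites of a line, or all 1261 sites in both lists for LM8 against MBT2. Shares of same-numbered libraries did not deviate together (correlation -0.0222 over those sites), and the main tests used no pairing. Such deviations include counting error of reads, so the correlation cannot show whether same-numbered libraries share a batch. Protein-altering means missense, stop, start, frameshift, in-frame and splice site changes. Private means missing from the other list by position and alleles. The 5 genes, the list of 83 symbols and the tests were chosen with earlier results of these data known. Kif10 in that list is an older name of Cenpe and matched nothing. Partner genes were named by depth, up to 12 per line with a private protein-altering variant. Codons were placed on GENCODE M21 transcripts only where they matched. On simulated data the duplicate test recovered 87.5% of 200 changed sites of 5445 in LM8 and 89.5% of 200 of 6361 in MBT2, with 1 false call in each. Recovery at differences of the size seen between duplicates of the 5 genes was not tested. Python 3.11.15, numpy 2.4.6, scipy 1.17.1, statsmodels 0.14.6 and matplotlib 3.10.9 were used.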

Additional observations from a re-analysis of the deposited data

How the results depend on the processing

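With single-base substitutions alone, the 5 genes had 5 listings in LM8 (9 in the main count) and 3 in MBT2 (5), and the single private protein-altering variant of MBT2 was lost (0). That count was also 0 without deletions of 21 or more bases. Without variants within 2 bases of read ends, a choice made after seeing the data, the private protein-altering count was 3 in LM8 (6) and 0 in MBT2 (1). The other counts over these genes moved by less than 1.5 times under a depth of 20 reads, 5 alternative reads, privacy by position or predicted impact. With 1 library left out, the orientation test called 48 to 52 sites in LM8 (80) and 94 to 112 in MBT2 (192). Read direction, tried after seeing the data, gave 148 in LM8. Sites that differed between LM8 and MBT2 numbered 54 to 73 with 1 library left out (54 without LM8 library 1) and 11 without deletions of 21 or more bases (92). A replicate block gave 93, although no pairing of the libraries by their numbers is known. The MBT2 count of spindle genes with substitutions alone was 8 (16).

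The caller's own fraction moved 3 of the shares beyond 1 SD of the 2 libraries, to 2.3% for the Kif11 insertion at N536, 4.85% for Kif23 Q703* and 8.55% for the Cenpf insertion in LM8. The largest move was 9.37 points, for the Kif20a deletion of MBT2, from 83.6% to 74.25%. That move was within 1 SD of its 2 libraries, which was 11.9 points. Of the LM8 values, Kif23 Q703* rests on 3 alternative reads and Cenpf A346T on 57 reads in all. Reads were given for listed sites alone, so absence from the other line was not measured.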
